A study of Mus musculus with 9 samples.

Results

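The genes described here are 9 genes of major histocompatibility complex (MHC) class II antigen presentation, H2-Aa, H2-Ab1, H2-Eb1, Cd74, Ciita, H2-DMa, H2-DMb1, H2-Oa and H2-Ob. They were chosen by name for their place in the pathway, and all 9 were found among the 46517 gene identifiers counted. RNA was sequenced in bulk from mouse glioblastoma, a malignant tumour of glial lineage. The 9 libraries, 3 per model, came from tumours of 3 Cre recombinase models that stood for different cells of origin. Per the labels all 3 groups had a mixed strain background and were primary tumour tissue. In the Synapsin-cre model Cre is named for a promoter that neurons use. In the NG2-creERTM model it is named for the Cspg4 promoter, used by oligodendrocyte precursor cells and pericytes, and acts after tamoxifen. In the Nestin-creERT2 model it is named for a promoter used by neural stem and progenitor cells, and also acts after tamoxifen. The alleles that drove the tumours, the tumour site, the tamoxifen schedule and the age and sex of the mice are not in the labels. The labels name separate samples without saying that each came from its own mouse, so every p-value measures only the spread between these samples.

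MHC class II molecules are surface proteins that show peptides from engulfed material to CD4+ T cells. Each is a pair of an alpha and a beta chain, made from H2-Aa and H2-Ab1 for the I-A form, while H2-Eb1 encodes the beta chain of the I-E form. The invariant chain Cd74 holds the groove until the molecule reaches the endosome, where H2-DM exchanges its remnant for a peptide and H2-DO restrains H2-DM. Ciita is the co-activator that switches these genes on, through proteins bound to the X and Y boxes of their promoters. In the brain, class II is known mainly from activated microglia, from macrophages at the borders or drawn in from blood, and from dendritic cells.

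The X and Y boxes are the shared control letters of this family, so promoters were read for them. The RefSeq promoter table for GRCm38.p6, with 300 bases per promoter (250 before and 50 after the gene's start), held 32851 promoters and 6 of the 9 genes. H2-Ab1, Cd74 and Ciita had no entry. The letters searched were CNNGNAAC for the X box and TGATTGG for the Y box, on both strands, and they were chosen after the sequences had been read. CNNGNAAC was present in 39.1% of all promoters and TGATTGG in 7.82%. The X letters followed by the Y letters on the gene's own strand, with starts at most 60 bases apart, were present in 73 promoters (0.222%), and on either strand in 129 (0.393%). The pair was present in the promoters of 5 genes, H2-Aa, H2-Eb1, H2-DMb1, H2-Oa and H2-Ob. Each is shown over 110 bases, 5′ to 3′ on the gene's strand, with the X and the Y letters in capitals.
H2-Aa, chr17:34287823-34287932, minus strand: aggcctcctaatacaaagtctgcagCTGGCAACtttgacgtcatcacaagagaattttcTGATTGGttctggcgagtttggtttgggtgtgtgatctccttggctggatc
H2-Eb1, chr17:34305748-34305857, plus strand: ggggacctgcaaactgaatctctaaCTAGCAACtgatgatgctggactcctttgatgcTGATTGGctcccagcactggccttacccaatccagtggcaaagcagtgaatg
H2-DMb1, chr17:34153069-34153178, plus strand: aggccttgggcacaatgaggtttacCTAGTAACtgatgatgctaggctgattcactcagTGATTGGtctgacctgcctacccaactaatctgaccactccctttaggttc
H2-Oa, chr17:34092275-34092384, plus strand: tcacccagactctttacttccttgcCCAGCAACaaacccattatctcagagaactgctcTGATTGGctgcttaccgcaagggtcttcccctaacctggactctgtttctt
H2-Ob, chr17:34238790-34238899, plus strand: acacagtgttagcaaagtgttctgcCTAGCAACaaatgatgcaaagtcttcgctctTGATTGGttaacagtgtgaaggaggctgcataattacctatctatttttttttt
The distance between the starts of the X and the Y letters was 34 bases in H2-Aa, H2-DMb1 and H2-Oa, 33 in H2-Eb1 and 31 in H2-Ob. The X letters began between 79 bases (H2-Oa) and 97 bases (H2-DMb1) upstream of the start in the RefSeq table, which is base 34092379 of chromosome 17 for H2-Oa and 34153191 for H2-DMb1 and lies inside the GENCODE coordinates of these genes. H2-DMa had 2 promoters in the table, both with the X letters and neither with the Y letters. A match of letters is a description of the promoter and shows no binding.

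The libraries held between 23557398 and 41099967 counts in genes, with a median of 34742585. Levels are given as CPM, counts scaled to a common effective library size. Synapsin-cre replicate 1 stood apart: its summed level of 8 neuronal genes was 6022 CPM, against 395 to 1346 CPM in the other 8 libraries, and its Mki67, a proliferation marker, was 29.3 CPM against 347 to 672 CPM. Its 6 proliferation genes summed to 71.3 CPM, against 898 to 1966 CPM in the others. The comparisons between models are therefore also given without that library. The glial and glioma markers of the labelled tissue were present, with summed levels of 8 genes from 3032 to 7717 CPM. In Synapsin-cre replicate 1 the sum of 4515 CPM was mostly Gfap, which at 4023 CPM was at its highest level of the 9 libraries. Sox2 (49.6 CPM), Olig2 (39.0 CPM), Nes (55.3 CPM), Pdgfra (128 CPM) and Cspg4 (49.1 CPM) were each at their lowest level there. Egfr (26.0 CPM) and Sox10 (145 CPM) were not at their lowest in that library. Sex-linked expression also went with 2 of the models. Xist, the RNA of the silenced X chromosome, was at 1.02 to 1.28 CPM in Synapsin-cre libraries, at 0.989, 1320.4 and 1.27 CPM in NG2-creERTM libraries, and at 778 to 1810 CPM in Nestin-creERT2 libraries. Ddx3y, a gene of the Y chromosome, was at 59.2 to 66.9 CPM in Synapsin-cre libraries and at 0 to 0.0715 CPM in Nestin-creERT2 libraries. In NG2-creERTM libraries Ddx3y was at 5.54, 0.0523 and 71.7 CPM, so replicate 1 was low in Xist and intermediate in Ddx3y. Sex-linked expression and model cannot be told apart between Synapsin-cre and Nestin-creERT2. NG2-creERTM replicate 2, the 1 library of its model with high Xist, was also the highest of the 9 in H2-Aa, H2-Ab1, H2-Eb1 and Cd74, and the part of sex in these levels was not tested.

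The class II chains and Cd74 differed widely between libraries, also between libraries of 1 model. H2-Aa, the alpha chain of I-A, had 18.6, 6.40 and 3.10 CPM in Synapsin-cre replicates 1 to 3, then 6.59, 94.3 and 39.4 CPM in NG2-creERTM replicates 1 to 3, and 12.7, 34.4 and 2.05 CPM in Nestin-creERT2 replicates 1 to 3. The highest library was 46.0-fold above the lowest over all models, 6.0-fold within Synapsin-cre, 14.3-fold within NG2-creERTM and 16.8-fold within Nestin-creERT2. NG2-creERTM replicates 2 and 3 were highest, NG2-creERTM replicate 1 was sixth of 9, and the range of each model overlapped those of the others.

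H2-Eb1, the beta chain of I-E, followed nearly the same order of libraries. It had 12.8, 4.97 and 0.992 CPM in Synapsin-cre libraries, 7.70, 79.4 and 28.6 CPM in NG2-creERTM libraries, and 8.34, 23.4 and 1.64 CPM in Nestin-creERT2 libraries. The ranges overlapped between all models, and the highest library was 80.0-fold above the lowest. Per kilobase of exon, H2-Eb1 stood at 0.626 to 2.28 times the level of H2-Aa over the 9 libraries.

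Cd74, the invariant chain, had 41.4, 13.5 and 5.35 CPM in Synapsin-cre libraries, 12.5, 167 and 58.7 CPM in NG2-creERTM libraries, and 30.2, 58.4 and 5.65 CPM in Nestin-creERT2 libraries. It was again high in NG2-creERTM replicates 2 and 3 and Nestin-creERT2 replicate 2, with overlapping ranges. Its ratio to H2-Aa in CPM moved only from 1.49 to 2.76 over the 9 libraries, while H2-Aa itself moved 46.0-fold. Per kilobase of exon Cd74 had the highest median of the 9 genes, 18.0 CPM per kilobase, against 6.50 for H2-Ab1, 4.29 for H2-Eb1 and 3.33 for H2-Aa.

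H2-Ab1, the beta chain of I-A, departed from its partner in 1 library. It had 16.7, 8.61 and 6.34 CPM in Synapsin-cre libraries, 80.8, 90.2 and 32.6 CPM in NG2-creERTM libraries, and 12.1, 28.6 and 2.19 CPM in Nestin-creERT2 libraries. All 3 NG2-creERTM libraries therefore lay above the other 6, which held for no other gene of the 9. Over all genes tested, groups did not overlap, in either direction, in 13.8% between Synapsin-cre and NG2-creERTM. Between NG2-creERTM and Nestin-creERT2 that share was 25.1%. In NG2-creERTM replicate 1 the deposited counts were 2697 for H2-Ab1 and 220 for H2-Aa. Per kilobase of exon H2-Ab1 stood at 18.1 times the level of H2-Aa there, and at 1.22 to 3.03 times in the other 8 libraries. Against H2-Eb1 its ratio in CPM was 10.5 in NG2-creERTM replicate 1 and 6.39 in Synapsin-cre replicate 3, where H2-Eb1 was lowest, and 1.14 to 1.73 in the other 7. The opposite strand held 8 counts at H2-Ab1 in NG2-creERTM replicate 1. The strain background is mixed, the reads were not used here, and how they aligned to H2-Ab1 was not tested.

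**Figure D1:**
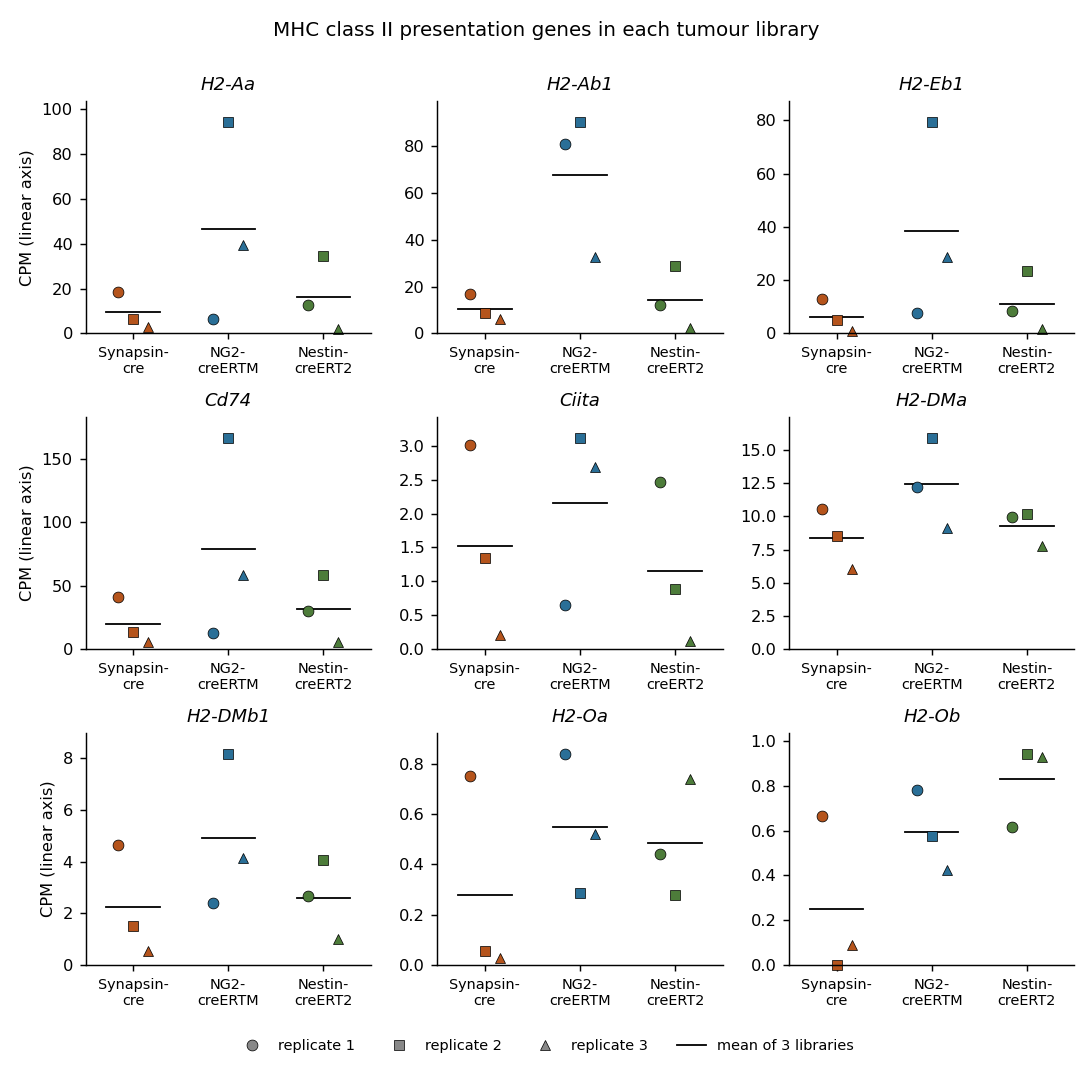
CPM (linear axes that start at 0) of the 9 class II genes in each tumour library. Points are libraries, with circles, squares and triangles for replicates 1, 2 and 3, and bars are means of 3 libraries. H2-Ab1 in NG2-creERTM replicate 1 was 80.8 CPM, while H2-Aa in the same library was 6.59 CPM.

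The peptide-loading genes split. H2-DMb1, the beta chain of H2-DM, had 4.65, 1.52 and 0.541 CPM in Synapsin-cre libraries, 2.40, 8.16 and 4.14 CPM in NG2-creERTM libraries, and 2.67, 4.05 and 1.0 CPM in Nestin-creERT2 libraries. It was high and low in much the same libraries as the chains. Its near-identical neighbour H2-DMb2 was counted at 0.221 to 0.794 CPM, so the division of reads between them is uncertain. H2-DMa, the alpha chain of H2-DM, had 10.5, 8.55 and 6.07 CPM in Synapsin-cre libraries, 12.2, 15.9 and 9.13 CPM in NG2-creERTM libraries, and 9.96, 10.2 and 7.74 CPM in Nestin-creERT2 libraries. It was the steadiest of the genes, with the highest library 2.62-fold above the lowest, against 15.1-fold for H2-DMb1. H2-DMa overlaps Brd2 on the other strand, which was at 313 to 662 CPM, and 0 to 1 reads per library at H2-DMa lay on that strand.

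H2-Oa and H2-Ob, the chains of the inhibitor H2-DO, were under 1 CPM in every library. H2-Oa had 0.752, 0.0552 and 0.0301 CPM in Synapsin-cre libraries, 0.839, 0.288 and 0.521 CPM in NG2-creERTM libraries, and 0.441, 0.277 and 0.739 CPM in Nestin-creERT2 libraries. H2-Ob had 0.664, 0 and 0.0902 CPM in Synapsin-cre libraries, 0.779, 0.575 and 0.422 CPM in NG2-creERTM libraries, and 0.617, 0.942 and 0.929 CPM in Nestin-creERT2 libraries. The count of 0 in Synapsin-cre replicate 2 allows a level of up to 0.0828 CPM (3 counts, counting error only). Both genes were low in Synapsin-cre replicates 2 and 3, and neither was highest in NG2-creERTM replicate 2, where the chains peaked.

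Ciita, the co-activator, had 3.01, 1.35 and 0.210 CPM in Synapsin-cre libraries, 0.659, 3.11 and 2.68 CPM in NG2-creERTM libraries, and 2.47, 0.887 and 0.119 CPM in Nestin-creERT2 libraries. It was highest in NG2-creERTM replicate 2 and lowest in Nestin-creERT2 replicate 3, as H2-Aa was, but the order between them differed. H2-Aa stood at 4.73 to 38.8 times Ciita in CPM. In Nestin-creERT2 libraries that ratio was 5.13, 38.8 and 17.2 in replicates 1 to 3. Ciita overlaps Dexi on the other strand, and between 5.26% and 89.1% of the reads at Ciita in a library lay on that strand.

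No gene of the 9 passed the test between models. All 9 were among the 17947 genes tested by edgeR's 2-sided quasi-likelihood test, with p adjusted by the Benjamini-Hochberg method and a threshold of 0.05. The 3 comparisons share libraries, so their values are given side by side and not as support for each other. Between Synapsin-cre and NG2-creERTM 0 of 9 passed, where 0% of all genes passed. At an unadjusted p under 0.05 1 of 9 was called, H2-Ab1, as were 12.8% of all genes. The log2 fold change of H2-Ab1 was -2.69 ± 0.84 (SE, 3 libraries per model), with an edgeR p of 0.0101 and an adjusted p of 0.357. H2-Ab1 was also the 1 gene whose groups did not overlap, as for 13.8% of all genes. Without NG2-creERTM replicate 1 its edgeR p was 0.0231 (log2 fold change -2.59 ± 0.93, adjusted p 0.692). The log2 fold changes were -2.32 ± 1.15 for H2-Aa, -2.62 ± 1.19 for H2-Eb1 and -1.98 ± 1.09 for Cd74, with edgeR adjusted p of 0.423, 0.394 and 0.468. All 9 values were negative, with a median of -1.29, against 0.08 over all genes tested.

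Between Synapsin-cre and Nestin-creERT2 0 of 9 passed (0% of all genes) and 0 of 9 reached an unadjusted p under 0.05 (10.8% of all genes). In 0 of 9 did the groups not overlap, against 14.7% of all genes. The log2 fold changes lay between -1.78 ± 1.12 (H2-Ob) and 0.39 ± 1.14 (Ciita), with a median of -0.65 against 0.13 over all genes. Without Nestin-creERT2 replicate 2 the median was 0.23, so its direction rests on that library.

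Between NG2-creERTM and Nestin-creERT2 0 of 9 passed, again with 0% of all genes. H2-Ab1 was higher at an unadjusted p under 0.05 (1 of 9, 11.3% of all genes), with a log2 fold change of 2.25 ± 0.82, an edgeR p of 0.0222 and an adjusted p of 0.387. Its groups did not overlap, as for 25.1% of all genes. Without NG2-creERTM replicate 1 its edgeR p was 0.0522 (log2 fold change 2.09 ± 0.92, adjusted p 0.719), no longer under 0.05. The values for H2-Aa, H2-Eb1 and Cd74 were 1.51 ± 1.12, 1.79 ± 1.15 and 1.34 ± 1.07. The median of the 9 was 0.93, against 0.02 over all genes, and H2-Ob alone was negative (-0.49 ± 1.06). In the test for any difference among the 3 models 0 of 9 passed (0% of all genes), and H2-Ab1 had the smallest p of the 9, 0.0130, with an edgeR adjusted p of 0.324 (13.1% of all genes had an unadjusted p under 0.05). DESeq2 passed 438, 506 and 621 of 17947 genes in the 3 comparisons, in this order. H2-Ab1 was among them between Synapsin-cre and NG2-creERTM (DESeq2 adjusted p 0.0387).

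**Figure D2:**
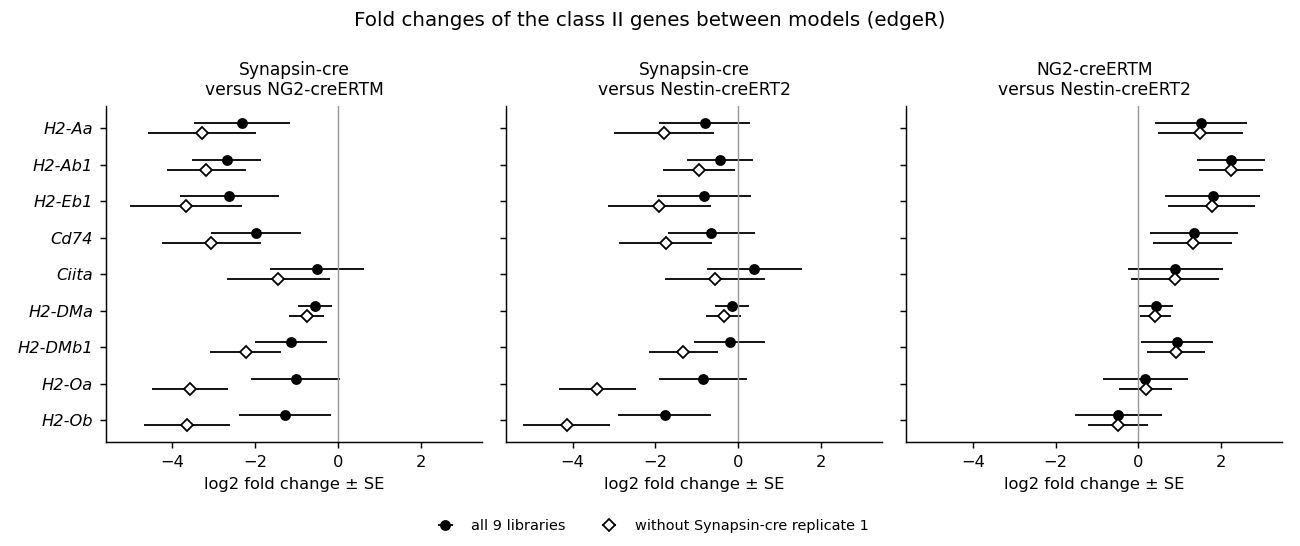
Log2 fold changes of the 9 genes in the 3 comparisons, as edgeR estimates with bars of 1 SE. Filled circles are from all 9 libraries and open diamonds from the fit without Synapsin-cre replicate 1. Without that library the median between Synapsin-cre and NG2-creERTM was -3.18, against -1.29 with it.

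Synapsin-cre replicate 1 had the highest level of its model in each of the 9 genes, and the comparisons moved without it. Still 0 of 9 passed in any comparison, where 0.00541%, 1.48% and 0.671% of 18481 genes passed between Synapsin-cre and NG2-creERTM, Synapsin-cre and Nestin-creERT2, and NG2-creERTM and Nestin-creERT2. Against NG2-creERTM 7 of 9 were lower at an unadjusted p under 0.05, as were 6.72% of all genes. These were H2-Aa, H2-Ab1, H2-Eb1, Cd74, H2-DMb1, H2-Oa and H2-Ob. In 7 of 9 (all but Cd74 and Ciita) both remaining Synapsin-cre libraries lay below all NG2-creERTM libraries, as in 12.9% of all genes. The log2 fold changes were -3.28 ± 1.30 for H2-Aa, -3.18 ± 0.96 for H2-Ab1, -3.67 ± 1.35 for H2-Eb1 and -3.58 ± 0.93 for H2-Oa (2 against 3 libraries). Their edgeR adjusted p were 0.382, 0.290, 0.358 and 0.258. Against Nestin-creERT2 H2-Oa (-3.40 ± 0.92) and H2-Ob (-4.15 ± 1.05) had the smallest edgeR adjusted p, 0.0893 and 0.0742. The values of H2-Oa and H2-Ob rest on few reads. Synapsin-cre replicates 2 and 3 held 2 and 1 counts of H2-Oa, and 0 and 3 counts of H2-Ob. The median of the 9 against Nestin-creERT2 was -1.75, against 0.01 over all genes. Between NG2-creERTM and Nestin-creERT2 the median was 0.91, against 0.02 over all genes. For any difference among the models 0 of 9 passed by edgeR (1.87% of all genes), and 4 of 9 (H2-Ab1, H2-Eb1, H2-Oa and H2-Ob) had an unadjusted p under 0.05, as did 22.3% of all genes.

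Genes of myeloid cells, which include class II bearing cells of the brain, were set beside the class II level. In bulk tissue fewer cells of a type and less RNA per cell cannot be told apart. The summed level of 9 pan-myeloid genes (Csf1r, Aif1, Cd68, Itgam, Fcer1g, Tyrobp, Spi1, Laptm5 and Fcgr3) was 651, 127 and 95.0 CPM in Synapsin-cre libraries, 291, 433 and 319 CPM in NG2-creERTM libraries, and 459, 328 and 346 CPM in Nestin-creERT2 libraries. The summed level of H2-Aa, H2-Ab1, H2-Eb1 and Cd74 was 89.5, 33.4 and 15.8 CPM in Synapsin-cre libraries, 108, 430.3 and 159 CPM in NG2-creERTM libraries, and 63.3, 145 and 11.5 CPM in Nestin-creERT2 libraries. Within Synapsin-cre the class II and the myeloid sums put the libraries in the same order, with replicate 1 highest. Within Nestin-creERT2 the class II sum spanned 12.6-fold, while the myeloid sum spanned 1.40-fold.

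The class II sum per myeloid sum was 0.138, 0.264 and 0.166 in Synapsin-cre libraries, 0.370, 0.995 and 0.499 in NG2-creERTM libraries, and 0.138, 0.441 and 0.0333 in Nestin-creERT2 libraries. The NG2-creERTM values lay above those of Synapsin-cre, with replicate 1 included, and overlapped those of Nestin-creERT2. H2-Ab1 makes most of the NG2-creERTM replicate 1 sum, and H2-Aa per Csf1r (the receptor of a macrophage growth factor) overlapped between all models, with 0.0764 to 0.213 in Synapsin-cre, 0.0841 to 1.12 in NG2-creERTM and 0.0204 to 0.595 in Nestin-creERT2 libraries. The part of myeloid content in the class II levels was not tested.

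**Figure D3:**
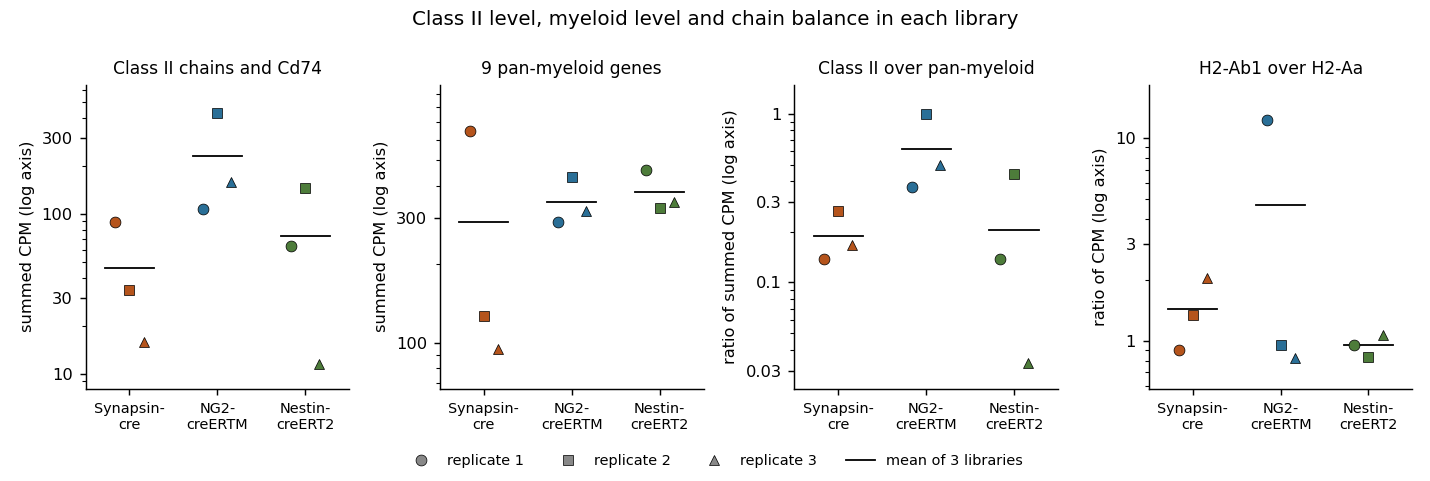
Summed CPM of H2-Aa, H2-Ab1, H2-Eb1 and Cd74, summed CPM of 9 pan-myeloid genes, the ratio of the 2 sums, and the ratio of H2-Ab1 to H2-Aa in CPM, on log axes. Points are libraries and bars are means of 3. Nestin-creERT2 replicate 3 had a myeloid sum of 346 CPM and a class II sum of 11.5 CPM.

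Markers of single cell types were read in the same libraries. Of 10 dendritic cell genes the defining Xcr1, Clec9a and Cd209a were at 0 to 0.443 CPM and Ccr7 at 0 to 0.447 CPM, while the list's sum (342 to 506 CPM in Synapsin-cre, 380 to 600.0 CPM in NG2-creERTM and 325 to 435 CPM in Nestin-creERT2 libraries) was mostly Fscn1, at 288 to 554 CPM. Itgax, an integrin shared with macrophages and microglia, was at 4.18 to 11.4 CPM in Synapsin-cre, 12.6 to 35.0 CPM in NG2-creERTM and 19.0 to 28.7 CPM in Nestin-creERT2 libraries, with its highest level in NG2-creERTM replicate 2. Zbtb46 was at 1.96 to 13.96 CPM over the 9 libraries, Batf3 at 0.831 to 3.64 CPM and Flt3 at 0.180 to 6.02 CPM. Of 8 B cell genes the defining Ms4a1 and Blk were at 0 to 0.180 CPM, and the list's sum was 0.662 to 5.98 CPM in Synapsin-cre, 2.85 to 3.65 CPM in NG2-creERTM and 4.85 to 7.14 CPM in Nestin-creERT2 libraries. Cd22, at 0.0902 to 4.72 CPM, and Pax5, at up to 2.67 CPM, had the highest levels of that list. The 10 T and NK cell genes summed to 1.63 to 6.73 CPM in Synapsin-cre and 2.16 to 6.20 CPM in NG2-creERTM libraries. In Nestin-creERT2 libraries they summed to 2.10 to 7.09 CPM. Cd3e was at 0 to 0.332 CPM. Lck (0.883 to 3.19 CPM), Cd4 (0.0899 to 3.02 CPM) and Il2rb (0.0953 to 2.38 CPM) had the highest levels of that list. Microglial genes (8) summed to 190 to 809 CPM in Synapsin-cre, 304 to 499 CPM in NG2-creERTM and 374 to 469 CPM in Nestin-creERT2 libraries, but in Synapsin-cre replicate 2 the sum of 531 CPM was mostly Sall1 (319.7 CPM) and Olfml3 (139.6 CPM), with Tmem119 at 3.17 CPM. The 9 monocyte and macrophage genes summed to 178, 97.6 and 59.1 CPM in Synapsin-cre libraries, 86.6, 380.3 and 327 CPM in NG2-creERTM libraries, and 233, 284 and 49.0 CPM in Nestin-creERT2 libraries. That sum was mostly Lyz2, with 316 of 380.3 CPM in NG2-creERTM replicate 2. Without Lyz2 the other 8 genes summed to 115, 30.3 and 18.3 CPM in Synapsin-cre libraries, 10.4, 64.3 and 40.2 CPM in NG2-creERTM libraries, and 40.99, 39.3 and 14.6 CPM in Nestin-creERT2 libraries. They were highest in Synapsin-cre replicate 1, where Plac8 (31.7 CPM), Ly6c2 (22.5 CPM) and Ccr2 (11.7 CPM) were each at their highest.

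Lyz2, the lysozyme gene of macrophages and monocytes, had the pattern most like the class II chains outside the 9 genes. Likeness was measured as the root mean square difference between centred log2(CPM + 0.1) profiles and that of the summed H2-Aa, H2-Ab1, H2-Eb1 and Cd74, over the 9 libraries and 12841 protein-coding genes, with a median of 1.69. It was 0.84 for Lyz2, 0.95 for Ms4a7 (a macrophage membrane protein), 0.99 for Slc40a1 (ferroportin, the iron exporter) and 1.03 for Abcc3 (a transporter of organic anions). Hfe, Fcrls, Tnfaip8l2, Mr1 and Gngt2 were among those that followed, at 1.05 to 1.08. Lyz2 had 62.7, 67.3 and 40.9 CPM in Synapsin-cre libraries, 76.1, 316 and 287 CPM in NG2-creERTM libraries, and 192, 245 and 34.4 CPM in Nestin-creERT2 libraries. Ms4a7 had 2.70, 1.68 and 1.95 CPM in Synapsin-cre libraries, 1.53, 16.8 and 6.06 CPM in NG2-creERTM libraries, and 1.23, 7.84 and 1.14 CPM in Nestin-creERT2 libraries. Less alike were the pan-myeloid genes Tyrobp at rank 80 (1.23), Ctss at rank 198 (1.31) and Csf1r at rank 1812 (1.52). The microglial gene Cx3cr1 was at rank 1321 (1.48). Ranks of the other genes of these lists are not reported here.

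**Figure D4:**
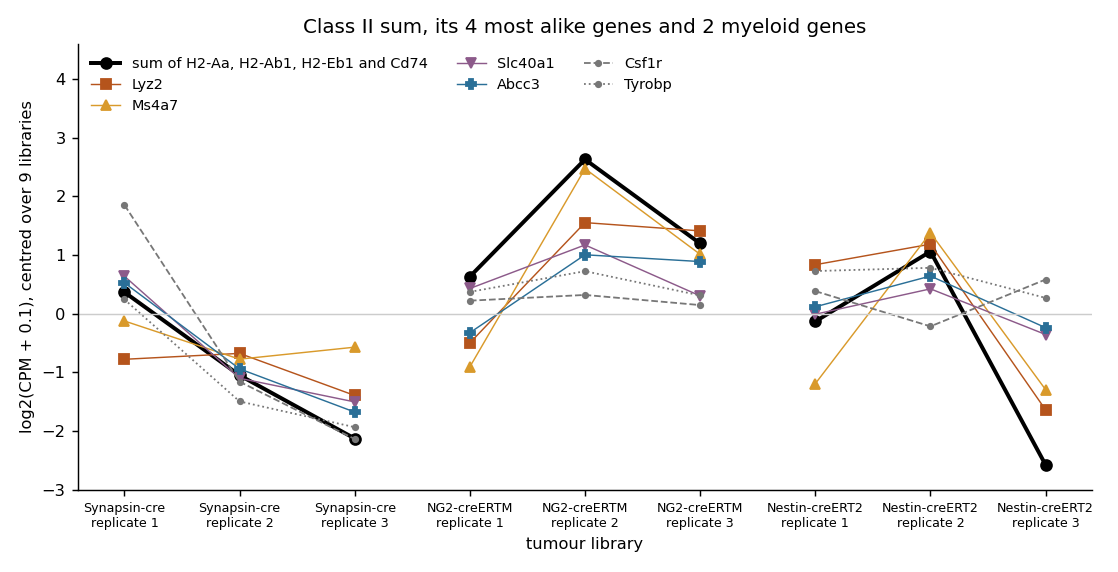
Centred log2(CPM + 0.1) in each library for the summed class II genes, the 4 genes with the most similar pattern, and the myeloid genes Csf1r and Tyrobp. Lines join the 3 libraries of a model for reading only. In Nestin-creERT2 replicate 3 the class II sum and Lyz2 (34.4 CPM) were low, while Csf1r was 101 CPM.

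Among the other genes of the pathway and the cell type markers 0 passed in any comparison of all 9 libraries, by the same edgeR test. In that fit 0 of 17947 genes passed in each comparison, so this 0 is not particular to these lists. The list of 10 genes of lysosomal processing includes proteases that cut antigen and Cd74, beside genes that do not. Of the 10, 9 were lower in Synapsin-cre than in NG2-creERTM (median log2 fold change -0.36, against 0.08 over all genes). Against Nestin-creERT2 8 were lower in Synapsin-cre (-0.44, against 0.13) and 7 were lower in NG2-creERTM (-0.09, against 0.02). Without Synapsin-cre replicate 1 these medians were -0.71, -0.72 and -0.09, beside -0.01, 0.01 and 0.02 over all genes. The cathepsin Ctss, which trims Cd74, had 191, 78.4 and 24.5 CPM in Synapsin-cre libraries, 131, 279 and 206 CPM in NG2-creERTM libraries, and 213, 270.1 and 239 CPM in Nestin-creERT2 libraries. Ctss was thus 239 CPM in Nestin-creERT2 replicate 3, where Cd74 was at 5.65 CPM. Without Synapsin-cre replicate 1, March1, the ubiquitin ligase that removes class II from the surface, was the 1 of 10 that fell in Synapsin-cre against Nestin-creERT2 (log2 fold change -3.69 ± 0.68, edgeR adjusted p 0.0438, 1.07% of all genes lower).

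The 7 factors that bind class II promoters (Rfx5, Rfxap, Rfxank, Creb1, Nfya, Nfyb and Nfyc) had median log2 fold changes of 0.14, -0.13 and 0.13 in the 3 comparisons, beside 0.08, 0.13 and 0.02 over all genes. Without Synapsin-cre replicate 1 they were -0.11, -0.04 and 0.12, beside -0.01, 0.01 and 0.02 over all genes. Rfx5, the large subunit of the X box complex, had 63.0, 22.5 and 37.4 CPM in Synapsin-cre libraries, 30.6, 38.9 and 27.0 CPM in NG2-creERTM libraries, and 37.3, 64.8 and 46.2 CPM in Nestin-creERT2 libraries. Interferon gamma is the classic inducer of Ciita, and Ifng was at 0 to 0.166 CPM. Of 13 genes of its response 12 were tested, with medians of 0.23, 0.27 and 0.16. Both positive medians of Synapsin-cre rest on its replicate 1: without it they were -0.82 (11 of 12 negative) against NG2-creERTM and -0.51 (7 of 12 negative) against Nestin-creERT2.

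The 11 genes of MHC class I presentation had medians of -0.20, 0.28 and 0.05, and the 6 tested of 7 costimulatory and checkpoint ligands had medians of -0.22, -0.75 and -0.26. Without Synapsin-cre replicate 1 the class I medians were -1.32 against NG2-creERTM and -1.12 against Nestin-creERT2, with 11 of 11 negative in both, so the positive value rests on that library. The costimulatory medians were then -1.51 and -1.81. Class I heavy chain H2-K1 had 337, 55.0 and 72.2 CPM in Synapsin-cre libraries, 93.5, 311 and 129 CPM in NG2-creERTM libraries, and 138, 437 and 214 CPM in Nestin-creERT2 libraries. In Nestin-creERT2 replicate 3 H2-K1 was thus above replicate 1, as were H2-Oa and H2-Ob, while H2-Aa, H2-Ab1 and H2-Eb1 were below replicate 1. Without Synapsin-cre replicate 1, the class I light chain B2m (1 of 11, -1.98 ± 0.34, edgeR adjusted p 0.0380) and the dendritic and B cell activation marker Cd83 (1 of 6, -2.15 ± 0.42, edgeR adjusted p 0.0445) fell in Synapsin-cre against Nestin-creERT2. In that fit 2 of 10 pan-myeloid genes (Tyrobp and Laptm5) and the microglial genes Tmem119, Cx3cr1 and Gpr34 also fell, and their part in these values was not tested.

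Of the 9 genes 7 lie on chromosome 17 (GRCm38), from H2-Oa (chr17:34092340-34095234) to H2-Eb1 (chr17:34305867-34316674), with Cd74 at chr18:60803848-60812652 and Ciita at chr16:10480059-10528418. Tap1, the peptide transporter of class I, lies between H2-DMb1 and H2-Ob and had 97.4, 15.0 and 14.3 CPM in Synapsin-cre libraries, 32.5, 52.4 and 39.5 CPM in NG2-creERTM libraries, and 19.8, 45.2 and 29.8 CPM in Nestin-creERT2 libraries. It was highest in Synapsin-cre replicate 1, whereas H2-Aa, H2-Ab1 and H2-Eb1 were highest in NG2-creERTM replicate 2. Of 4 other genes of the class II region (H2-DMb2, H2-Eb2, H2-Ea-ps and Btnl2) 1, H2-DMb2, passed the filter, with log2 fold changes of -0.86, -0.51 and 0.34 in the 3 comparisons. H2-Ea-ps, the I-E alpha chain gene that is intact or inactive by strain, was at 1.26 CPM in Nestin-creERT2 replicate 1, 0.286 CPM in Nestin-creERT2 replicate 3 and 0 to 0.0899 CPM in the other 7 libraries. H2-Eb2, a beta chain gene beside H2-Eb1, was at 1.23 CPM in NG2-creERTM replicate 2 and at 0 to 0.330 CPM elsewhere.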

How the data were processed

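Read counts per gene were deposited for every library. Per the submitters' processing notes STAR, HTSeq and mm10 were used, and the annotation release is not given in the sources used here. A file has an unstranded column and 1 column per strand. The fourth column was taken, since the opposite strand held 3.25 to 3.64% of counts in genes. The first 4 lines, which name no gene, were dropped. Together they held 17.9 to 27.3% of a library, as reads that were not assigned to a gene for any reason. GENCODE vM21 named 46005 of the 46517 identifiers and gave coordinates and exon lengths.

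Counts were filtered with filterByExpr, scaled with TMM and fitted as 1 design of 3 models in edgeR 4.0.16 under R 4.3.3. SE are the log2 fold change over the root of F. The biological coefficient of variation came to 0.612 over all libraries and 0.503 with Synapsin-cre replicate 1 left out. The members, the 16 gene lists and the tests were chosen with earlier results of these data known. All 9 members are named, with list genes that passed in either fit, up to 4 of the highest mean CPM per list, and the 10 genes most like the members (mean log2 CPM of at least 1). List genes outside this rule were named after their values were seen. Some genes that met the rule are not reported here. The alternatives changed the size factors (upper quartile, relative log expression), the filter (none, or 1 CPM in 3 libraries), the counted strand, the libraries (2 models, or each library left out) or the tool (DESeq2 1.42.0, or limma 3.58.1 voom, plain or with quality weights per sample). The fit was also run on simulated counts with planted changes, and the outcome is not reported here. Python 3.11.15 with pandas 2.3.3, numpy 2.4.6 and matplotlib 3.10.9 made the tables and figures.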

Additional observations from a re-analysis of the deposited data

Results flagged for a closer look

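Reads on the strand opposite to the counted one lie outside the main measurement, and 3 genes had more than 3 of them in at least 1 library. Ciita had 118 such reads in Synapsin-cre replicate 1, against 68 on its own strand, where Dexi overlaps it. H2-Eb1 had 10 in NG2-creERTM replicate 2 and H2-Ab1 had 8 in NG2-creERTM replicate 1, both far below the counts on their own strand. There was no control library to set these against, and their source was not tested.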

How the results depend on the processing

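No paired analysis was possible because the replicate numbers follow accession order and the labels tie no sample of 1 model to a sample of another. Of 129 alternative values of counts and medians 121 stayed within 1.5 times or 1 SD (1.04 on the log2 scale) of the main value. The SD is the spread of the members' mean log2 CPM within models. It is larger than the main medians of -0.65 and 0.93 in size, so the change of sign from -0.65 to 0.23 counted as staying. A count of 0 also stayed in fits where 0 genes of all tested passed. The tally is therefore no measure of stability. With DESeq2 the number of members that passed was 1 (H2-Ab1, log2 fold change -2.72) between Synapsin-cre and NG2-creERTM, where 438 of 17947 genes passed. It was also 1 for any difference, for which the number over all genes is not reported here. With voom and sample quality weights 1 member passed (H2-Ob, -4.73, adjusted p 0.0468) between Synapsin-cre and Nestin-creERT2, where 266 of 17947 genes passed. The median between Synapsin-cre and NG2-creERTM was -2.51 with these weights. With 2 models only and Synapsin-cre replicate 1 left out the medians were -3.20 against NG2-creERTM and -1.74 against Nestin-creERT2. Leaving out 1 library at a time gave medians from -3.18 to -0.96, from -1.75 to 0.23 and from 0.48 to 1.42 in the 3 comparisons, and 0 members passed. Of 498 alternative values of single members 13 changed sign. Between Synapsin-cre and NG2-creERTM Ciita was 0.40 with unstranded counts, which mix it with Dexi. Between Synapsin-cre and Nestin-creERT2, leaving out 1 library at a time gave H2-Aa -1.79 to 0.34, H2-Ab1 -0.96 to 0.56, H2-Eb1 -1.90 to 0.32, Cd74 -1.75 to 0.15 and H2-DMb1 -1.32 to 0.27, with each highest value from the fit without Nestin-creERT2 replicate 2. H2-Ab1 was 0.10 with voom, and H2-DMb1 was 0.18 without Synapsin-cre replicate 3. Ciita lay from -0.56 to 1.53, with -0.15 without Nestin-creERT2 replicate 3 and -0.56 without Synapsin-cre replicate 1, in the fit of all models and in that of 2. Between NG2-creERTM and Nestin-creERT2 H2-Oa lay from -0.27 (without NG2-creERTM replicate 1) to 0.61, with -0.11 without Nestin-creERT2 replicate 2. The cause of these changes was not tested. The filter of 1 CPM removed H2-Oa and H2-Ob, whose levels rest on few reads.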
